A study of Mus musculus with 9 samples.

Results

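Chromatin remodellers are ATPases and their partner subunits that slide, evict or exchange nucleosomes, and bromodomain proteins bind acetylated histones. Genes of both kinds were taken from the expression table of mouse oocytes by symbol: the Smarc, Chd, Ino80, Brd, Baz1 and Baz2 series together with Bptf, Srcap, Ep400, Atrx and Hells. The symbol rule found 48 of the table's 26358 genes. Of these, 44 were placed by role in complexes or families, and 4 were not: the pseudogenes Smarca5-ps and Smarce1-ps1 and the entries Ino80dos and Brd3os. Detection was sufficient for a test in 46 of the 48, the exceptions being Smarca1 and Brd3os.

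The study sequenced poly(A) RNA of mouse oocytes in 9 libraries, 3 in each of 3 groups. The cryopreservation-2 oocytes were frozen in straws in 17.5% EG with 1 M trehalose and nanoparticles of PVA, Fe3O4 and GO. Those of cryopreservation-1 were frozen on cryotop in 15% EG, 15% DMSO and 0.5 M sucrose, and fresh oocytes were the unfrozen comparison. The mouse strain and age, the meiotic stage and the number of oocytes per library were not given in the sources used here. Carrier, permeating agent, sugar and nanoparticles differ together between the frozen groups, so the part of any one of them cannot be told apart. No label says that the 3 libraries of a group came from separate animals or pools, so the p-values rest on a spread between libraries that may be technical.

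Remodellers fall into a few families by their ATPase. SWI/SNF complexes slide and evict nucleosomes, ISWI complexes space them, CHD proteins read histone methylation through chromodomains in several members, and the INO80 and SWR1 class includes the machinery that handles the variant H2A.Z. A growing mouse oocyte lays down stores of such mRNAs, and maternal SMARCA4 is known to be needed for activation of the embryo's genome after fertilization. Stored oocyte mRNAs are also regulated through the length of their poly(A) tails, and counts here come from oligo(dT)-selected RNA, so transcript number and recovery on oligo(dT) both enter a count.

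Total counts were 49337232 to 51369012 in the cryopreservation-2 libraries, 64276885 to 80877288 in those of cryopreservation-1 and 73899130 to 80100460 in fresh, so depth moved with the group. Its part in the results was not tested. A gene at 0 counts can have had up to 3 counts, by counting error alone, which is 0.0372 to 0.0575 CPM (counts over the scaled library total) in these libraries. Oocyte markers led by Gdf9 made up 0.887% to 1.60% of counts over all libraries. The summed level of 8 cumulus and granulosa cell genes was 0.112% to 0.175% of counts in cryopreservation-2, 0.101% to 0.124% in cryopreservation-1 and 0.0937% to 0.124% in fresh. It was carried by Serpine2. Cyp19a1 had 1671 to 5264 counts and Fshr 15 to 108 counts in a library, while Inhba, Cyp11a1, Ptx3, Has2 and Ptgs2 were at 0 counts in at least one library. The part of these cells in the results was not tested. Blood and immune genes stayed at or below 0.00146% and stromal and endothelial genes at or below 0.0201%. The 48 genes together took 0.341% to 0.418% of counts in cryopreservation-2, 0.273% to 0.316% in cryopreservation-1 and 0.253% to 0.353% in fresh.

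Remodeller mRNAs were mostly of moderate level in oocytes. Levels are given in FPKM, which the authors scaled by a gene length not given here. Set beside CPM, that length departs from transcript length by amounts that vary between genes. Comparisons of level between genes are therefore approximate. By FPKM, 10 of the 48 averaged at least 10 FPKM in fresh oocytes, 26 lay between 1 and 10, and 12 lay under 1. The share at or above 10 FPKM was 20.8% for these genes and 11.3% for all genes of the table. The 2 shares are not on a like base, as 46 of the 48 genes were detected well enough to test, against 17545 of all 26358. The highest mean FPKM in fresh was that of Brd7, a bromodomain subunit of the SWI/SNF form called PBAF, at 22.0 ± 2.93 FPKM (SD, n = 3). Atrx, which places histone H3.3 at repeats with its partner DAXX and is found at pericentric heterochromatin in mouse oocytes, followed at 20.8 ± 2.10 FPKM in fresh. These ranges overlapped, so their order does not go beyond the spread between libraries. Hells, a SNF2 ATPase needed for DNA methylation of repeats, and Brd2, a BET reader of acetylated histones, were also among the 5 highest, at 14.9 ± 3.80 and 14.6 ± 2.58 FPKM in fresh.

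**Figure D1:**
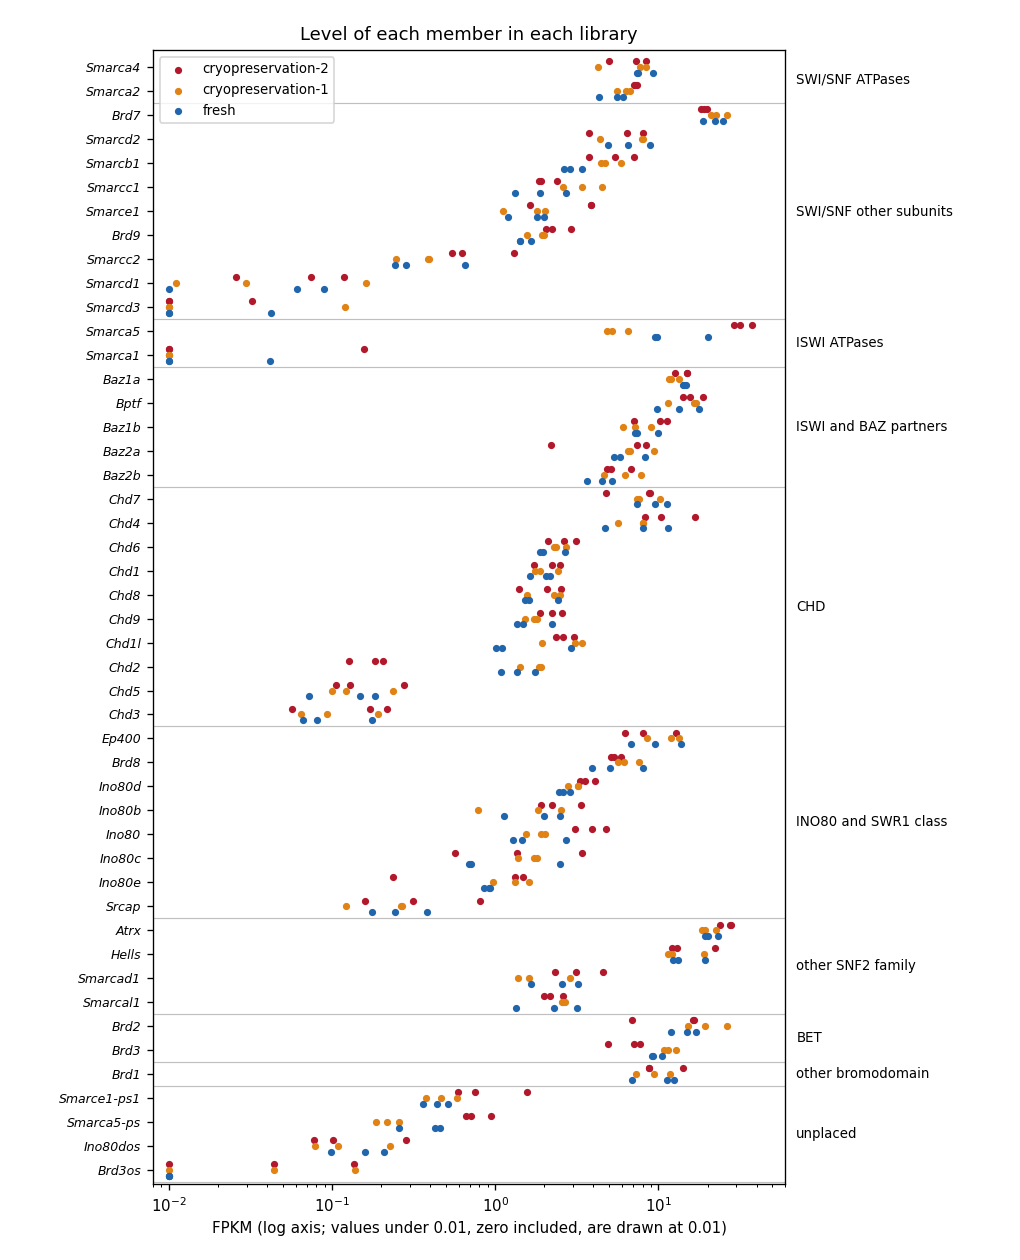
Level of 47 of the 48 genes in each library as FPKM on a log axis, grouped by role. Each point is 1 library, coloured by group, with values under 0.01 drawn at 0.01. Chd2 is the gene whose 3 cryopreservation-2 points stand clear of all 6 others by the widest margin, and Smarcd1, Smarcd3, Smarca1, Chd3 and Chd5 lie far below their relatives.

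In 3 sets of closely related genes, one member carried nearly all of the summed FPKM in all 3 groups. Smarcd2 made up 98.4% to 99.3% of the summed FPKM of the 3 SWI/SNF subunits Smarcd1 to Smarcd3 in cryopreservation-2, 96.7% to 99.9% in cryopreservation-1 and 97.9% to 100% in fresh. Chd4, the ATPase of the NuRD deacetylase complex, held 96.8% to 98.1% of the sum with Chd3 and Chd5 in cryopreservation-2, 94.9% to 98.0% in cryopreservation-1 and 95.3% to 98.3% in fresh. Smarca5, the ATPase of most mammalian ISWI complexes, stood almost alone beside Smarca1, its X-linked relative. Smarca1 had 58 counts in cryopreservation-2 replicate 1 and 23 in fresh replicate 2, and 0 counts in the other 7 libraries. The SWI/SNF ATPases were shared more evenly, with Smarca4 at 40.9% to 54.2% of their summed FPKM in cryopreservation-2, 38.9% to 57.8% in cryopreservation-1 and 55.2% to 62.8% in fresh. In counts the order in fresh was the reverse, with Smarca4 at 55.7% to 76.5% of the counts of Smarca2. Their longest protein-coding transcripts have 6376 (Smarca4) and 5921 bases (Smarca2), so which was more abundant depends on the length used.

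Cryopreservation-2 against fresh asked which transcripts differed after the trehalose and nanoparticle method. Only 2 of the 46 tested remodeller and bromodomain genes passed the test (edgeR's quasi-likelihood test, Benjamini-Hochberg adjusted p under 0.05 over 17545 genes). Chd2 fell and Smarca5 rose, so 4.35% of these genes were called, against 5.38% of all genes tested. In the direction of each call, 3.18% of all genes were called higher and 2.2% lower. The median log2 fold change was 0.13 for the 46 genes and -0.06 for all genes, and 2 of the 46 (4.35%) had changed more than 2-fold, against 30.6% of all genes. With 1 library left out the members' median lay between 0.05, without cryopreservation-2 replicate 3, and 0.27, without fresh replicate 1, and with offsets for transcript length and GC content it was 0.34. The libraries of the groups did not overlap for 12 of the 46 genes, 8 higher and 4 lower in cryopreservation-2. That is 26.1%, beside 27.5% of all genes, so both shares were near the background. The tested members had a median of 2.37 FPKM in fresh, against 0.946 for all tested genes, and the sizes of fold changes were not compared at matched level.

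Chd2, a chromodomain ATPase found at transcribed genes, was the gene with the largest change. It had 3.45, 2.92 and 1.93 CPM in the cryopreservation-2 libraries, against 17.6, 32.2 and 23.2 CPM in fresh. Every cryopreservation-2 library lay below every fresh one. The means were 2.77 ± 0.769 CPM in cryopreservation-2 and 24.3 ± 7.40 CPM in fresh (SD, n = 3 each), a log2 fold change of -3.14 (SE 0.33, edgeR adjusted p = 0.00331), or 8.80-fold lower. The low level was read from 116 to 180 counts in the cryopreservation-2 libraries, against 1418 to 2242 counts in fresh, well above the limit of 3 counts. In bulk RNA, fewer cells of a kind and less RNA per cell cannot be told apart. With each of the 9 libraries left out in turn the log2 fold change lay between -3.32 and -2.88, and the call held in all 9 fits. The gene lies at chr7:73426638-73541830 on the minus strand (GRCm38), where the entry 1810026B05Rik overlaps it on the same strand over 2030 bases and had 0 to 76 counts in a library.

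Smarca5 encodes the nucleosome-spacing ATPase of ISWI complexes such as ACF, CHRAC and WICH. It had 335, 264 and 235 CPM in the cryopreservation-2 libraries, against 175, 98.2 and 87.7 CPM in fresh. The groups did not overlap, but fresh replicate 1 stood well above the other fresh libraries. The means were 278 ± 51.9 CPM in cryopreservation-2 and 120 ± 47.9 CPM in fresh (SD, n = 3 each), a log2 fold change of 1.21 (SE 0.28, edgeR adjusted p = 0.0377), or 2.31-fold higher. Of the 9 fits that each left out 1 library the call held only in that without fresh replicate 1, at a log2 fold change of 1.58 and an adjusted p of 0.0211. The adjusted p of the other 8 went up to 0.120. The gene lies at chr8:80698507-80739497 on the minus strand (GRCm38), and the entry Gm45872, which overlaps it, had 1 count in every library.

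**Figure D2:**
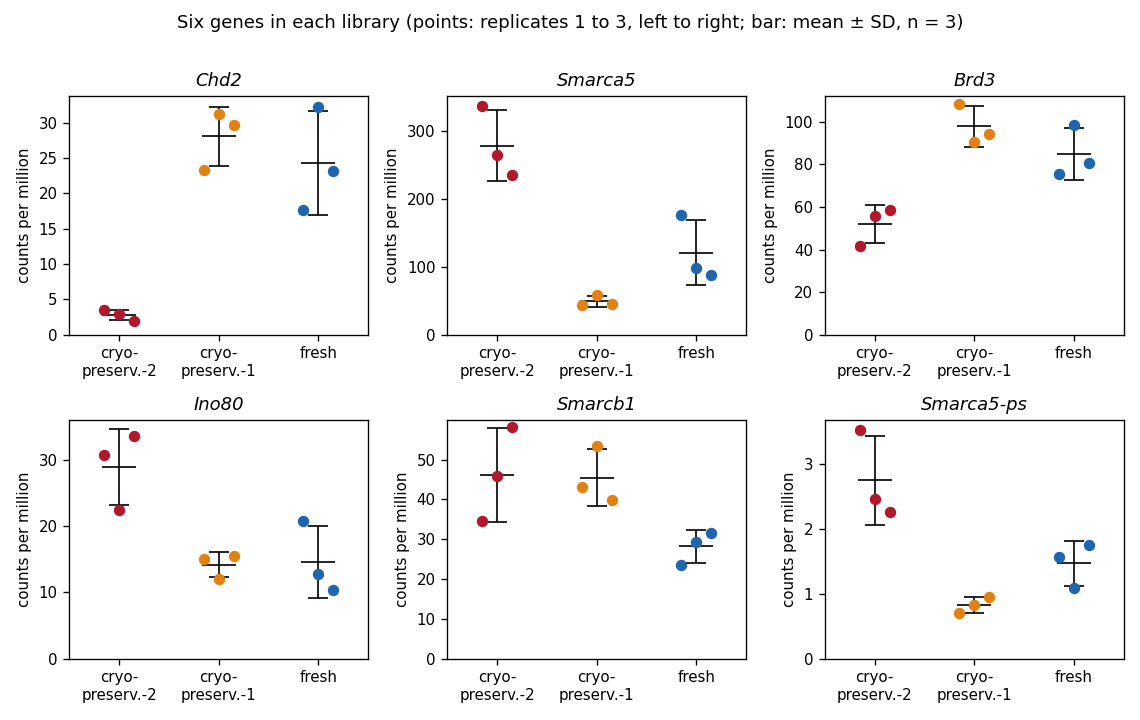
CPM of 6 genes in each library, with cryopreservation-2, cryopreservation-1 and fresh from left to right, points for replicates 1 to 3, and bars for the mean and SD of 3 libraries. Chd2 lies between 1.93 and 3.45 CPM in cryopreservation-2 and above 17 CPM in every other library, and Smarca5 separates the 3 groups without overlap, with cryopreservation-1 lowest.

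Because tail length and 3′ processing are the best-known controls of stored oocyte mRNAs, the 3′ ends of the genes with the smallest p-values in this comparison are shown. Each line is a 30-base window around the polyadenylation signal, in capitals, near the end of the gene's longest protein-coding transcript in GENCODE (GRCm38), 5′ to 3′ on the transcript's strand.
Chd2: tgattcttgtatATTAAAaagtgttactaa
Smarca5: aatgtatcagacAATAAAggaaggatgttg
Brd3: ttttgttttcatAATAAAaagggaaagaag
Ino80: aaaaaaatcttaAATAAAatggagtgagat

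Chd2 carries the variant signal ATTAAA, which starts 30 bases from its annotated end. The other 3 carry AATAAA, which starts 19 to 31 bases from theirs. Either signal was found in the last 40 bases of 37 of 43 tested protein-coding members (86.0%) and of 76.4% of 13316 tested protein-coding genes, on the transcript's strand only. AATAAA itself was found in 31 of the 43 (72.1%) and in 62.0% of those genes, so the remaining matches were ATTAAA alone. The motif TTTTAT, the core of the cytoplasmic polyadenylation element of oocyte mRNAs, was found in the last 100 bases of 4 of the 43 (9.30%), against 15.1% of those genes. The 4 were Baz2b, Chd9, Ino80 and Smarcad1, and none of them was called in any comparison by edgeR's quasi-likelihood test. In Ino80 the motif starts 11 bases from the annotated end, outside the window shown. A match here is a description of the annotated sequence and not a measured site.

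The other bromodomain and INO80-class genes at the edge of the test moved less. Brd3, a BET protein like Brd2, had 41.7, 55.6 and 58.7 CPM in cryopreservation-2 and 75.4, 98.6 and 80.6 CPM in fresh, with no overlap. Its log2 fold change was -0.71 (SE 0.21), with an edgeR adjusted p of 0.0759, so it did not pass. Ino80, the ATPase that names its complex, had 30.7, 22.5 and 33.6 CPM in cryopreservation-2 and 20.8, 12.7 and 10.3 CPM in fresh. The log2 fold change of 0.98 (SE 0.30) had an edgeR adjusted p of 0.0876, and its 95% interval ran from 0.31 to 1.66. Ino80 was called with DESeq2 (adjusted p = 0.0155), which also called Brd3 and Smarcb1, and in edgeR with a filter of at least 5 mean CPM (adjusted p = 0.0360) or with offsets for length and GC content (adjusted p = 0.0288).

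None of the 11 SWI/SNF genes among the 46 was called in cryopreservation-2 against fresh. Of the 9 subunits other than the ATPases, 5 were above and 4 below fresh in log2 fold change (median 0.40). That median is the value of Smarcd1, which had 0 to 58 counts in a library and a 95% interval of -3.03 to 3.84. Smarcb1, a core subunit, had 34.6, 46.0 and 58.1 CPM in cryopreservation-2 and 23.6, 29.3 and 31.6 CPM in fresh, so the groups did not overlap. This gave a log2 fold change of 0.71 (SE 0.25) and an edgeR adjusted p of 0.123. Brd9, the bromodomain subunit of the non-canonical form, had 16.6, 16.7 and 21.1 CPM in cryopreservation-2 against 11.1, 12.7 and 13.6 CPM in fresh. This was a log2 fold change of 0.54 (SE 0.23) at an edgeR adjusted p of 0.210. For the ATPases the values were -0.37 (95% interval -0.99 to 0.25) for Smarca4 and 0.31 (-0.09 to 0.70) for Smarca2, on the log2 scale.

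Smarca5 and Chd2 apart, no member of the remaining families was called between cryopreservation-2 and fresh. Among the ISWI partners, log2 fold changes ran from -0.26 to 0.21 over Baz1a, Baz1b, Baz2a, Baz2b and Bptf. Bptf, the largest subunit of NURF and a reader of H3K4 methylation, had 0.13 (95% interval -0.38 to 0.64), and Baz1a, the ACF partner of SMARCA5, had -0.16 (-0.54 to 0.23). Thus none of the 5 partners of the ISWI ATPase passed the test that Smarca5 passed. Of the other 9 CHD genes, which ran from -0.46 for Chd7 to 0.57 for Chd1l, none was called. Chd1, the closest relative of Chd2 and an ATPase that reads H3K4 methylation, had 20.2 ± 2.60 CPM in cryopreservation-2 and 20.5 ± 4.18 CPM in fresh (SD, n = 3 each). Chd1 thus had a log2 fold change of -0.02 (95% interval -0.57 to 0.53). Chd4 had 0.43 (-0.27 to 1.13).

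In the INO80 and SWR1 class, Ep400, the ATPase of the TIP60 acetyltransferase complex, had a log2 fold change of -0.28 (95% interval -0.93 to 0.37). Srcap, which loads H2A.Z, had 0.52 (-0.71 to 1.75) and was a low gene, with 156 to 799 counts per cryopreservation-2 library, against 253 to 509 per fresh library. Its level is uncertain, because the entry Gm42715 overlaps it on the same strand over 41636 bases. Atrx and Hells had log2 fold changes of 0.21 (-0.16 to 0.59) and -0.03 (-0.73 to 0.67). Brd2 had -0.29 (-0.97 to 0.40), and Brd7 had -0.34 (-0.71 to 0.04).

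**Figure D3:**
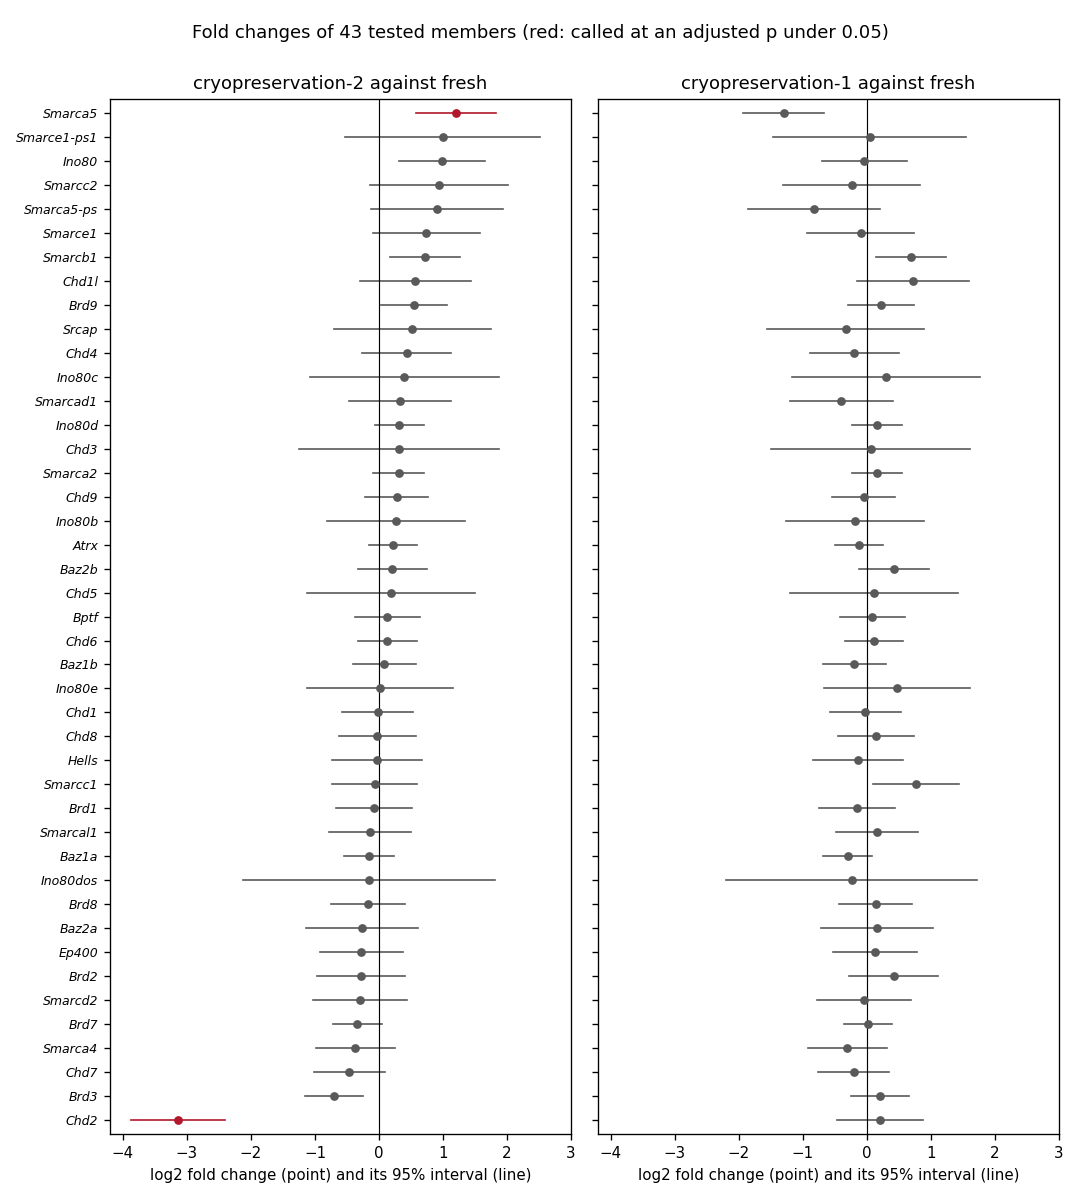
Log2 fold change (points) with its 95% interval (lines) for 43 of the 46 tested genes, in cryopreservation-2 against fresh on the left and cryopreservation-1 against fresh on the right, in one order. Smarcd1 and Smarcd3, at a few counts, are left out because their intervals run past the axis. Red marks Smarca5 and Chd2, the calls on the left, and none is red on the right.

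Cryopreservation-1 against fresh asked the same of the DMSO and sucrose method. None of the 46 genes was called, as none of all 17545 genes was (0%), and 3 of the 46 had an unadjusted p under 0.05 in edgeR's test, against 828 of all genes. DESeq2 called 1, Smarca5, among 43 of all genes. Libraries did not overlap for 5 of the 46 (10.9%, beside 10.1% of all genes): 1 was higher, Smarcb1, and 4 were lower in cryopreservation-1, among them Smarca5, Smarca5-ps and Baz1a. The median log2 fold change was 0.05 for the 46 genes and 0.02 for all genes.

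Smarca5 had 43.3, 57.9 and 45.4 CPM in cryopreservation-1, against 175, 98.2 and 87.7 CPM in fresh. All 3 frozen libraries were below all 3 fresh ones. The log2 fold change was -1.30 (SE 0.28, 95% interval -1.93 to -0.67), with an unadjusted p of 0.000911 and an adjusted p of 1 in edgeR's quasi-likelihood test, and DESeq2's adjusted p was 0.00655. Without fresh replicate 1, the highest fresh library, the log2 fold change was -0.92. Chd2 in cryopreservation-1 had 23.4, 31.2 and 29.6 CPM and overlapped fresh, with a log2 fold change of 0.21 (95% interval -0.46 to 0.87). Smarcb1 had 43.0, 53.5 and 39.7 CPM in cryopreservation-1, all above the fresh libraries. Its log2 fold change of 0.69 (SE 0.25, edgeR adjusted p of 1) was close in size to the 0.71 of cryopreservation-2 against fresh. Both comparisons use the same 3 fresh libraries.

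Cryopreservation-2 against cryopreservation-1 compared the freezing methods directly, with the fresh libraries entering only the estimate of spread and the scaling. In it 3 of 46 genes passed edgeR's quasi-likelihood test (6.52%, against 2.75% of all genes): Smarca5 was higher and Chd2 and Brd3 were lower in cryopreservation-2. Over all genes 1.5% were called higher and 1.25% lower. The groups did not overlap for 14 genes (30.4%, beside 29% of all genes), 9 higher and 5 lower in cryopreservation-2. More than 2-fold differences were seen for 6 of the 46 (13.0%), against 27.5% of all genes, and the medians were 0.07 and -0.07 on the log2 scale.

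Smarca5 differed most clearly in the upward direction. Its 335, 264 and 235 CPM in cryopreservation-2 stood against 43.3, 57.9 and 45.4 CPM in cryopreservation-1. The log2 fold change was 2.51 (SE 0.29, edgeR adjusted p = 0.00783), or 5.68-fold higher in cryopreservation-2. Relative to fresh oocytes, then, the transcript lay above in one method and below in the other, with no overlap among the 3 groups. The call was lost when cryopreservation-1 replicate 1 or replicate 3 was left out, with log2 fold changes of 2.42 to 2.64 and adjusted p-values up to 0.0592 over the 9 such fits.

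The processed pseudogene Smarca5-ps on chromosome 4 had the same order of group means as the parent gene. It had 3.53, 2.46 and 2.25 CPM in cryopreservation-2, 0.700, 0.825 and 0.951 CPM in cryopreservation-1 and 1.56, 1.08 and 1.75 CPM in fresh. Its counts were 0.934% to 1.05% of those of Smarca5 in cryopreservation-2, 1.42% to 2.09% in cryopreservation-1 and 0.892% to 1.99% in fresh. The log2 fold change of 1.73 (SE 0.47) in cryopreservation-2 against cryopreservation-1 did not pass, with an edgeR adjusted p of 0.0778. A processed pseudogene shares most of its sequence with the parent mRNA, so its reads are uncertain and it is not a second measurement.

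Chd2 had 3.45, 2.92 and 1.93 CPM in cryopreservation-2, against 23.4, 31.2 and 29.6 CPM in cryopreservation-1, a log2 fold change of -3.34 (SE 0.33, edgeR adjusted p = 0.00383), or 10.2-fold lower. Brd3 had 41.7, 55.6 and 58.7 CPM in cryopreservation-2, against 109, 90.7 and 94.3 CPM in cryopreservation-1, and again the groups did not overlap. Its log2 fold change was -0.91 (SE 0.21, edgeR adjusted p = 0.0467). This call stood at the threshold: of 9 fits that each left out 1 library it held in the one without fresh replicate 2, and the adjusted p ran from 0.0475 to 0.180. When the library of each group with the most genes at 0 was left out (cryopreservation-2 replicate 1, cryopreservation-1 replicate 3 and fresh replicate 3, a choice made after seeing the data), edgeR called no gene of the table in this comparison, and the adjusted p of both Chd2 and Smarca5 was 0.0633. Chd2 stayed called in cryopreservation-2 against fresh without them, at a log2 fold change of -3.26 and an adjusted p of 0.0367, whereas Smarca5 lost its call there, at 0.95 and an adjusted p of 0.155.

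Of the genes not called, several had groups that did not overlap between the methods. Ino80 had 30.7, 22.5 and 33.6 CPM in cryopreservation-2, against 15.0, 12.1 and 15.5 CPM in cryopreservation-1, a log2 fold change of 1.03 (SE 0.30, edgeR adjusted p = 0.0954). Smarcc1 and Smarcc2, related scaffold subunits of SWI/SNF, had log2 fold changes of opposite sign, at -0.83 (SE 0.30, edgeR adjusted p = 0.163) and 1.18 (SE 0.49, edgeR adjusted p = 0.218). Smarcc2 thus made up 22.6%, 20.6% and 40.6% of their summed FPKM in cryopreservation-2, against 10.4%, 8.71% and 7.86% in cryopreservation-1. In fresh it was 25.8%, 15.6% and 9.41%, which overlaps both.

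**Figure D4:**
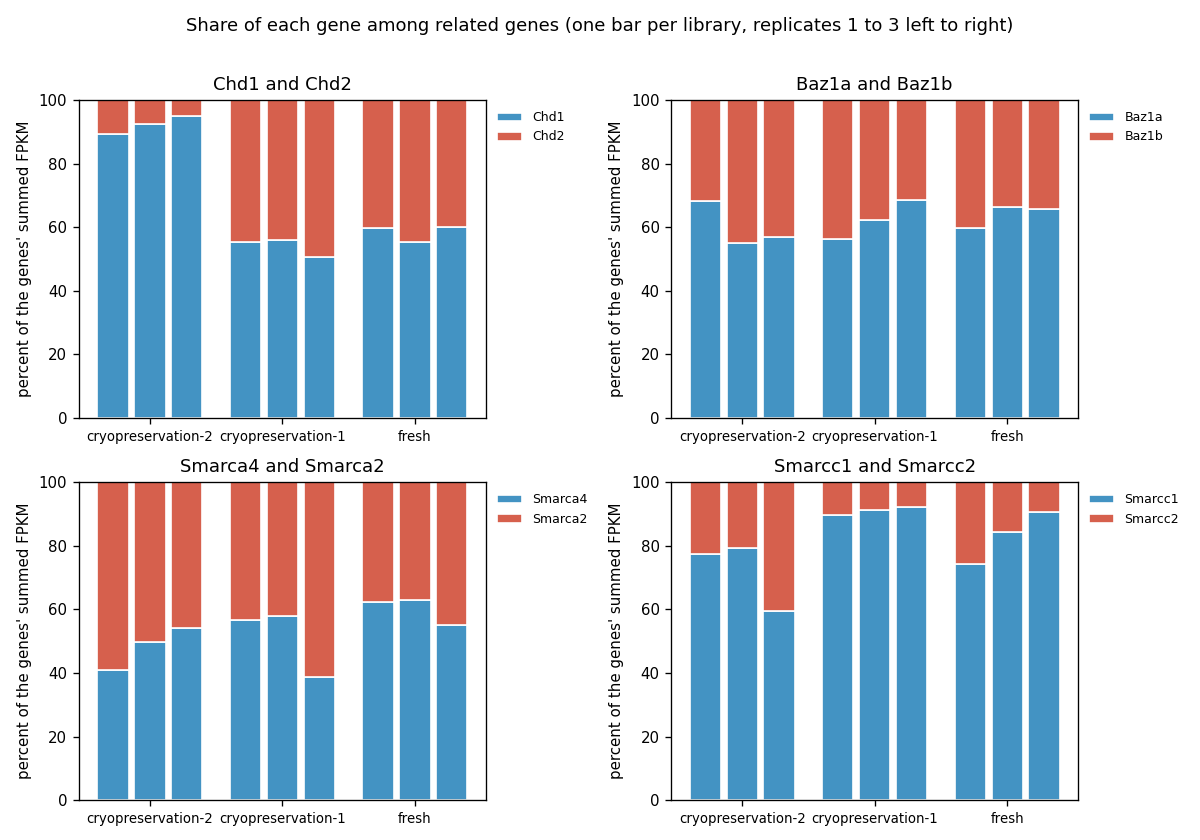
Share of each gene in the summed FPKM of its near relatives, 1 bar per library, with cryopreservation-2, cryopreservation-1 and fresh from left to right. Chd2 takes 4.89% to 10.6% of the Chd1 and Chd2 sum in cryopreservation-2, 43.9% to 49.4% in cryopreservation-1 and 39.9% to 44.8% in fresh. Smarcc2 takes 20.6% to 40.6% of the Smarcc1 and Smarcc2 sum in cryopreservation-2 and 7.86% to 10.4% in cryopreservation-1.

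The balance between relatives shows what these changes amount to as shares of summed FPKM. In FPKM, Chd1 and Chd2 were near parity in cryopreservation-1, with Chd2 at 44.7%, 43.9% and 49.4% of their sum, and in fresh, at 40.1%, 44.8% and 39.9%. In cryopreservation-2 Chd2 was 10.6%, 7.70% and 4.89% of it. For the ACF and WICH subunits Baz1a and Baz1b, the share of Baz1a was 68.1%, 55.1% and 57.0% in cryopreservation-2, 56.3%, 62.4% and 68.6% in cryopreservation-1 and 59.9%, 66.3% and 65.7% in fresh, so that all 3 groups overlap. These shares restate the gene values above and were given no test of their own.

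The partner genes of the same complexes that the symbol rule does not reach were read from 5 lists of 81 genes, of which 78 were tested. In cryopreservation-2 against fresh, 5 were called higher and 2 lower (8.97%, against 5.38% of all genes), in cryopreservation-1 against fresh none of the 78, and in cryopreservation-2 against cryopreservation-1, 2 higher and 1 lower (3.85%, against 2.75%). By list, 2 of 16 SWI/SNF partners, 1 of 12 NuRD partners, 2 of 23 INO80, SRCAP and TIP60 partners, 2 of 9 partners of ISWI, ATRX and HELLS, and 0 of 18 further bromodomain genes were called in cryopreservation-2 against fresh. Those lists' median log2 fold changes were -0.51, 0.05, -0.01, 0.14 and -0.21, beside -0.06 for all genes. Unlike those of the members, the calls of partner genes were not followed through fits with 1 library left out or other settings.

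Among the INO80 partners, Uchl5, a deubiquitinase of both INO80 and the proteasome, had 44.6, 37.0 and 41.4 CPM in cryopreservation-2, against 21.8, 24.7 and 19.4 CPM in fresh. The log2 fold change was 0.90 (SE 0.20, edgeR adjusted p = 0.0328), and it was 0.94 against cryopreservation-1 (edgeR adjusted p = 0.0393). Tfpt, another INO80 subunit, rose by a log2 fold change of 1.18 (SE 0.28, edgeR adjusted p = 0.0412). Ino80 itself, at 0.98, was not called.

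H3f3a, which encodes histone H3.3, the variant that ATRX with DAXX deposits, had 220, 252 and 265 CPM in cryopreservation-2, against 89.7, 138 and 64.4 CPM in fresh. The log2 fold change of H3f3a was 1.33 (SE 0.30, edgeR adjusted p = 0.0323), and 1.28 against cryopreservation-1 (edgeR adjusted p = 0.0498). H3f3b, on the same list and also a gene for H3.3, was tested and not called in either comparison. Pole3, a histone-fold subunit of the ISWI complex CHRAC and of DNA polymerase epsilon, fell to 140, 164 and 177 CPM in cryopreservation-2, against 316, 298 and 252 CPM in fresh (log2 fold change -0.85, SE 0.21, edgeR adjusted p = 0.0464). In the same comparison Smarca5, the ATPase of CHRAC, was higher.

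For SWI/SNF the called partners went in opposite directions. Actl6a, an actin-related subunit, had 168, 72.8 and 52.6 CPM in cryopreservation-2, against 20.1, 30.0 and 33.0 CPM in fresh (log2 fold change 1.82, SE 0.40, edgeR adjusted p = 0.0299), with replicate 1 of cryopreservation-2 far above the others. Bcl7b, a small accessory subunit, had 33.2, 53.8 and 50.6 CPM in cryopreservation-2, against 82.0, 100.3 and 99.1 CPM in fresh (log2 fold change -1.03, SE 0.22, edgeR adjusted p = 0.0269). It was also lower than in cryopreservation-1, by a log2 fold change of -1.34 (edgeR adjusted p = 0.0178). Cdk2ap1, a small NuRD subunit, had 3.43, 3.19 and 3.37 CPM in cryopreservation-2, against 0.211, 0 and 0 CPM in fresh. Its edgeR adjusted p was 0.0496, and with 2 fresh libraries at 0 no fold is given.

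Spread within groups was not even across the libraries. Of the 46 tested genes, cryopreservation-2 replicate 1 was the library farthest from the other 2 of its group in 24, and it was the lowest of the 3 in 24 and the highest in 12. Brd2 and Baz2a show it: Brd2 had 62.6 CPM in that library against 137 and 134 CPM in the other 2, and Baz2a 27.1 CPM against 85.2 and 93.9 CPM. How often that library stood apart was counted in these members only, not over all genes tested. For Chd2 and Brd3 all 3 cryopreservation-2 libraries lay below every other library. In Brd3, too, replicate 1 was the lowest of them, at 41.7 CPM against 55.6 and 58.7 CPM. The tested members had longer transcripts than most genes, with a median of 5894.5 bases against 2548 for all tested genes. Across the 46 genes, which are not independent replicates, Pearson's r of log2 length and log2 fold change in cryopreservation-2 against fresh was -0.21, and -0.14 over all genes.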

How the data were processed

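Poly(A) RNA of mouse oocytes was sequenced in 9 libraries, 3 a group, made as strand-marked cDNA, per the labels' protocols. The submitters' processing notes name cutadapt 1.9, HISAT2 2.0.4, StringTie 1.3.4d and the build GRCm38. Which program counted the reads, with which strand setting and annotation release, was not given in the sources used here, so reads of overlapping entries (18 of the 48 genes have one, 7 on the same strand) and of pseudogenes cannot be told apart. The authors deposited 1 table with raw counts per gene and FPKM values per gene and library, which they scaled by gene length and library.

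The 48 genes were taken by symbol, and the members, role groups and partner lists were chosen with earlier results of these data known. Named genes are those called, those with the smallest unadjusted p and no overlap, a list set by role, and the highest 5 in fresh. Counts were tested with edgeR's quasi-likelihood test (edgeR 4.0.16, R 4.3.3): filterByExpr (minimum count 10, total 15), TMM scaling, all 9 libraries in 1 fit, Benjamini-Hochberg adjustment over 17545 genes, calls at an adjusted p under 0.05. The common coefficient of variation was 0.662. CPM are TMM-scaled, and SE are those of log2 fold changes in the fit. DESeq2 1.42.0, limma 3.58.1 on log2(FPKM + 1) and log2(FPKM + 0.1), made from the deposited FPKM, and other settings were alternatives. The test was also run on counts simulated from its own fitted spread, which cannot show how well it holds for these libraries. Libraries of the same group differed by more than sampling noise (chi-square per degree of freedom 85.8 to 326). Sequences are from GENCODE transcripts of GRCm38, and positions from the deposited table. The values of 1 member are not reported here, though it is part of all counts and medians.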

Additional observations from a re-analysis of the deposited data

Results flagged for a closer look

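The 3 genes called in cryopreservation-2 against cryopreservation-1 (edgeR's quasi-likelihood test, Benjamini-Hochberg adjusted) are listed again here. Their values restate those calls and are no further test. That comparison is also the test of the difference between each method's change from fresh. Chd2 had a log2 difference of -3.34 (adjusted p = 0.00383), at -3.14 against fresh in cryopreservation-2 and 0.21 in cryopreservation-1. Smarca5 had a log2 difference of 2.51 (adjusted p = 0.00783), at 1.21 against fresh in cryopreservation-2 and -1.30 in cryopreservation-1. Brd3 had a log2 difference of -0.91 (adjusted p = 0.0467), at -0.71 against fresh in cryopreservation-2 and 0.21 in cryopreservation-1. The call of Brd3 held in 1 of 9 fits that each left out 1 library. Groups of 3 libraries are too small to test for a single outlying library.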

How the results depend on the processing

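In cryopreservation-2 against fresh, 2 genes were called, against 5 with DESeq2 (Brd3, Chd2, Ino80, Smarca5, Smarcb1), 1 (Chd2) with only the groups compared in the fit, 1 to 2 with 1 library left out, and 1 without the 3 libraries with the most genes at 0. It was 3, with Ino80 added, with the filter of at least 5 mean CPM and with the length and GC offsets. In cryopreservation-1 against fresh, DESeq2 called 1 (Smarca5) against 0, and leaving out 1 library gave 0 each time. In cryopreservation-2 against cryopreservation-1, 3 were called, against 5 with DESeq2, 1 to 3 with 1 library left out, and 0 without those 3 libraries. Over all genes, the calls of cryopreservation-2 against fresh were 944 in edgeR's main test, 2471 with DESeq2, 429 with only those groups and 194 without those 3 libraries. Those of cryopreservation-2 against cryopreservation-1 were 483, 1892, 540 and 0.

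The 19 alternatives gave 1248 values of single genes, which cover the tested members chosen for naming and not all tested members. Of these values, 1122 kept direction and side of the threshold, 28 lost a call and 13 gained one. Another 85 changed sign without being called, and none reversed a call. With offsets for transcript length and GC content the median log2 fold change of the members in cryopreservation-2 against fresh was 0.34, against 0.13. Replicate numbers did not pair the samples (correlations of deviations -0.125 to 0.122). With the replicate block, cryopreservation-2 against fresh had 2 calls, cryopreservation-1 against fresh 0, and cryopreservation-2 against cryopreservation-1 2, Brd3 being lost. Low counts came with wide intervals: Smarcd3, at 0 to 44 counts, had a 95% interval of -6.38 to 5.37 on the log2 scale in cryopreservation-2 against fresh.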
